A study of Mus musculus with 15 samples.

Results

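The mitochondrial respiratory chain and the ATP synthase were followed through 83 genes in the kidneys of 15 male C57BL/6 mice, 5 each at 3, 12 and 24 months of age. The genes were chosen by name from the 33124 gene names of the linear transcript table (Ndufa, Ndufb, Ndufc, Ndufs and Ndufv with a digit, Uqcr, Cox4 to Cox8, Atp5 and Sdha to Sdhd, without the 4 pseudogene names ending in -ps). The choice used no expression value, and the rule also takes in genes that are not subunits, such as Atp5s and Atp5sl. The genes comprise 37 genes named for complex I, 4 for complex II, 8 for complex III, 17 for complex IV and 17 for complex V, on 19 chromosomes. The subunits that mitochondrial DNA encodes were not analysed here. All the mice were of 1 inbred strain and 1 sex, on standard feed, and the labels name no altered allele and no treatment. Each library was made from the whole kidney RNA of 1 mouse. The sample titles carry the 3-month prefix at every age, and the age labels were followed. The labels describe removal of ribosomal RNA, whereas the methods of the study describe capture of polyadenylated RNA, and which was used here is not settled by the sources. This bears on the retained-intron and circular RNA values below.

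Complex I (NADH dehydrogenase) and complex II (succinate dehydrogenase) pass electrons to ubiquinone, complex III passes them to cytochrome c, and complex IV (cytochrome c oxidase) passes them to oxygen. Complexes I, III and IV pump protons, and complex V, the ATP synthase, uses the proton gradient to make ATP. The kidney is rich in mitochondria because its tubules, above all the proximal tubule, reabsorb filtered solutes by active transport. Several subunits exist as paralogs with tissue-restricted forms in muscle, testis or lung. In whole-kidney RNA, fewer cells of a type and less RNA per cell cannot be told apart.

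The tissue matched its label, since 8 proximal tubule marker genes summed to 6313 to 11665 FPKM in a mouse. A gene value is the sum of the FPKM (fragments scaled to transcript length and to the mapped fragments of the library) of its transcripts. The 83 genes held 396 transcripts, of which 344 were annotated in Ensembl and 52 were assembled from these reads. Together they took between 2.27% and 2.66% of all FPKM in a mouse. The aligned bases implied by coverage and transcript length were 5.03 to 6.13 Gb per mouse at 3 months, 5.84 to 8.03 Gb at 12 months and 6.07 to 7.33 Gb at 24 months, and the part of this difference in depth in the results was not tested. The 3-month mouse 8 was the shallowest and held the lowest value of its age for 46 of the 83 genes.

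Nuclear genes of these complexes are known targets of the factors NRF1 and GABP (an ETS family factor) and, in part, YY1. Promoters of 69 of the 83 genes were matched in RefSeq (GRCm38.p6), as the 250 bases before and the 50 after the start. The NRF1 letters GCGCATGCG, on either strand, stood in 8 of the 69 (11.6%) and in 1.95% of 27025 genes. These letters are nearly their own reverse complement, so that a match on one strand often overlaps a match on the other. The ETS letters CCGGAAG stood in 16 (23.2%) against 9.93% of all genes, and the YY1 letters AAGATGGC in 11 (15.9%) against 3.19%. In all, 30 of the 69 genes held at least 1 of the 3. The stretches before the RefSeq start of 4 genes that recur below are shown 5′ to 3′ on the gene's strand, with matches in capitals. Those of Atp5l (chr9:44920743-44920992, minus strand) and Sdhd (chr9:50603850-50604099, minus strand) cover 250 bases, and those of Ndufa8 (chr2:36049339-36049368, minus strand) and Cox6b1 (chr7:30626115-30626144, minus strand) the last 30. The Ndufa8 and Cox6b1 genes as summed here start further upstream than in RefSeq, at chr2:36049406 and chr7:30626151. Both of these stretches thus lie inside the gene spans given below. The matches are a description of letters and not of binding.
Atp5l: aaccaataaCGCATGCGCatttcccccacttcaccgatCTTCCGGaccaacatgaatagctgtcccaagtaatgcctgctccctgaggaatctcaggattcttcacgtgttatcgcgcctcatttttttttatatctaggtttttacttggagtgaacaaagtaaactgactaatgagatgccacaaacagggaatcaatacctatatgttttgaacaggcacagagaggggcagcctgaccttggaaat
Sdhd: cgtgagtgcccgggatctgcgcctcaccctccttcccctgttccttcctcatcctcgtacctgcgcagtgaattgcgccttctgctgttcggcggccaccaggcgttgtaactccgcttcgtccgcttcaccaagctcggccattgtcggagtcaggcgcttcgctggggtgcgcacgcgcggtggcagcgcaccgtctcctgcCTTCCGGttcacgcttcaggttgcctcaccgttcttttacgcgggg
Ndufa8: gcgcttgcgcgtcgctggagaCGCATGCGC
Cox6b1: agCTTCCGGccagtcggaattccgcttccc

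Levels, which FPKM gives per length of transcript, ran from a mean of 0.0134 FPKM (Cox7b2) to 621 FPKM (Atp5b). The highest was Atp5b, the catalytic beta subunit of the ATP synthase, with that mean taken over the 15 mice, followed by Cox6c (464 FPKM), a small subunit of complex IV, and Atp5a1 (329 FPKM), the alpha subunit. In complex III the core proteins Uqcrc1 (173 FPKM) and Uqcrc2 (142 FPKM) led with Uqcrb (133 FPKM). In complex II these were Sdha, the flavoprotein, at 166 FPKM and Sdhb, the iron-sulphur subunit, at 102 FPKM. Among the highest complex I genes were Ndufb9 (73.6 FPKM) and Ndufs1 (72.1 FPKM), a core subunit. Other leading genes were Cox7c (183 FPKM), Cox6a1 (183 FPKM) and Atp5f1 (156 FPKM). Of the 83 genes, 67 had a mean of at least 10 FPKM and 5 a mean under 1 FPKM.

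Some of the low values belonged to subunits of the ATP synthase. Atp5e, the epsilon subunit, had a mean of 1.45 FPKM, and 63.2% of that came from a transcript of 1697 bases annotated as a retained intron. Atp5k, the e subunit, had 2.32 FPKM with a leading transcript of 371 bases. Atp5j2, the f subunit, had 5.81 FPKM with a leading transcript of 955 bases. The median over genes whose leading transcript is under 600 bases was 25.3 FPKM, against 34.3 FPKM for 600 to 1000 bases and 56.2 FPKM for at least 1000 bases. The part of transcript length in these levels was not tested.

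To ask whether whole complexes shifted with age, FPKM were summed over the genes of each complex in each mouse. The sums of complex I in the 3-month mice were 1183, 1325, 1219, 1055 and 1195 FPKM, with a mean of 1195 ± 96.2 (SD, n = 5). In the 12-month mice they were 1384, 1142, 1314, 1189 and 1291 FPKM, with a mean of 1264 ± 97.8 (SD, n = 5). In the 24-month mice they were 1203, 1173, 1016, 1069 and 1036 FPKM, with a mean of 1099 ± 83.9 (SD, n = 5). The 24-month mean was thus 0.920 times the 3-month mean, and the ranges overlapped.

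The ratio of the 24-month to the 3-month mean was 0.948 for complex II, 0.999 for complex III, 0.945 for complex IV, 0.988 for complex V and 0.960 for all 83 genes. Without the genes whose values fell into 2 separate ranges (described below), complex II was at 1.04 and complex III at 1.04, so neither ratio had a stable direction. Every complex overlapped between these ages, and no test was made on the sums. Complex III had its highest mean at 12 months, 714 ± 60.1 FPKM (SD, n = 5), against 596 ± 75.8 (SD, n = 5) at 3 months and 595 ± 42.5 (SD, n = 5) at 24 months. The 24-month to 12-month ratios were 0.870 for complex I, 0.901 for complex II, 0.834 for complex III, 0.963 for complex IV and 0.950 for complex V. Without the genes in 2 ranges complex II was at 0.956, III at 0.892, IV at 0.966 and V at 0.924. The FPKM of all transcripts summed to 227510 to 242730 per mouse at 12 months and 218740 to 232970 at 24 months. The 83 genes took 2.38% to 2.63% of this sum at 12 months and 2.29% to 2.51% at 24 months. The part of this sum in the ratios was not tested.

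**Figure D1:**
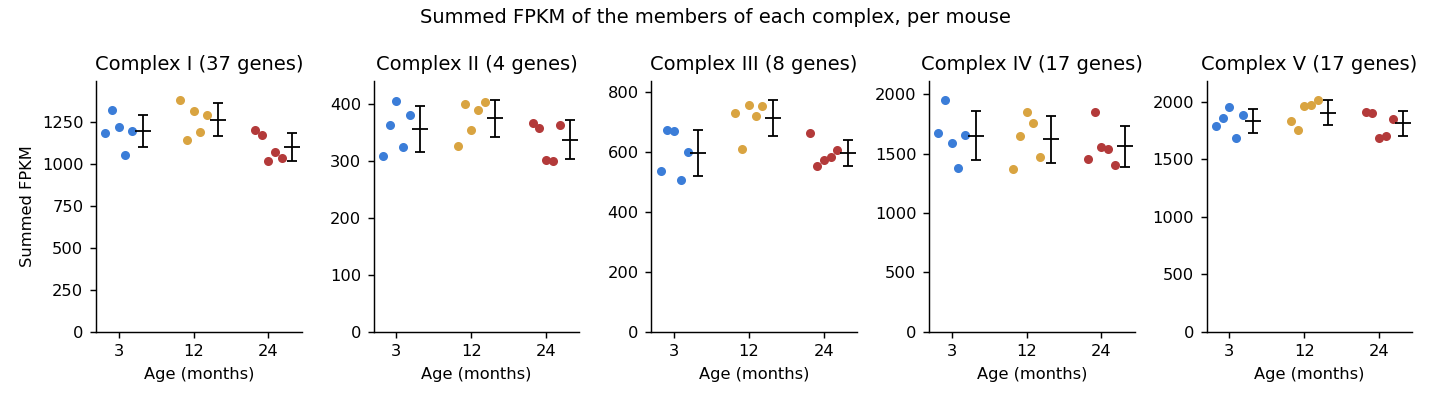
Summed FPKM of the genes of each complex (vertical axis from 0) in each mouse (points) at 3, 12 and 24 months, with the mean and SD beside the points. The ages overlap in every complex, and the 24-month mean of complex I (1099 FPKM) is 0.920 times the 3-month mean.

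Between 24 and 3 months, 7 of the 10 genes that passed the test belonged by name to complex I, which holds 37 of the 83 genes. Of these 7, 6 were lower and 1 was higher. With limma on log2(FPKM + 1), 8 of the 83 genes were lower at 24 months and 2 were higher at an unadjusted p under 0.05. The lower genes included Ndufa10, Ndufs7, Ndufb5, Ndufa7 and Ndufb8 of complex I, Uqcrq of complex III and Cox5a of complex IV, and the 2 higher were Atp5l and Ndufa4l2. Of all 31817 genes tested, 3.46% were lower and 11.4% higher by the same rule. Among genes with a mean of at least 10 FPKM, where nearly all of these genes lie, 10.1% were lower and 8.49% higher, against 8 (11.9%) and 1 (1.49%) of the 67 genes of the chain at that level. The share of lower genes was thus close to that of other abundant genes. The median log2 change of the 67 was -0.09, against -0.02 over all genes at that level. By the limma fit no gene of the 83 had an adjusted p (Benjamini-Hochberg) under 0.05, and the lowest adjusted p was 0.111, while 389 genes of the whole table passed it.

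Ndufa10, an accessory subunit of complex I (chr1:92439010-92473860, minus strand, GRCm38), had the smallest p. Its values were 50.3, 45.1, 50.3, 44.1 and 51.1 FPKM at 3 months and 40.7, 37.9, 39.0, 43.2 and 32.9 FPKM at 24 months. All 5 of the 24-month mice lay below all 5 of the 3-month mice, and it was the only gene of the 83 with separate ranges in this comparison. The share over all genes with separate ranges is not given here. The 12-month values of 53.9, 54.7, 40.6, 47.9 and 41.1 FPKM spanned both. The log2 change was -0.31 (SE 0.08), with a limma p of 0.00404 (adjusted p 0.111). The exact two-sided permutation test on the FPKM gave p = 0.00794, the smallest that 5 mice against 5 can give. Separate ranges always give this value, so it adds nothing to them.

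Cox5a, a subunit of complex IV (chr9:57521274-57532426, plus strand), had 73.7, 87.0, 76.3, 65.7 and 75.5 FPKM at 3 months and 58.8, 69.3, 57.5, 63.7 and 56.1 FPKM at 24 months. The 24-month mouse 32 reached into the 3-month range. The log2 change was -0.30 (SE 0.09), with a limma p of 0.00789.

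Ndufs7, which carries an iron-sulphur cluster in complex I, had 48.1, 49.3, 43.3, 49.4 and 45.8 FPKM at 3 months against 40.5, 43.7, 42.9, 39.7 and 41.5 FPKM at 24 months, a log2 change of -0.18 (SE 0.06). Its limma p was 0.0135, and with only transcripts identical to the annotation the limma p was 0.329. Ndufb5, a membrane-arm subunit, had 63.5, 62.1, 57.7, 62.7 and 47.9 FPKM against 48.5, 54.0, 42.5, 48.2 and 49.1 FPKM, a log2 change of -0.27 (SE 0.09). In Ndufs7 only the 24-month mouse 32 reached the 3-month range, while in Ndufb5 4 old mice lay above the 3-month mouse 9 and below the other 4 young mice.

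Uqcrq, a small subunit of complex III, had 19.2, 18.4, 18.3, 12.6 and 20.3 FPKM at 3 months and 16.6, 16.0, 7.37, 8.74 and 11.8 FPKM at 24 months. The log2 change was -0.56 (SE 0.22), with a limma p of 0.0317. Ndufa7 fell by 0.57 on the log2 scale (SE 0.24), and its 3-month mouse 6 stood at 50.4 FPKM against 21.8 to 29.01 FPKM in the other 3-month mice. Ndufb8 fell by 0.35 on the log2 scale (SE 0.15), from a 3-month range of 39.9 to 66.3 FPKM to a 24-month range of 35.8 to 50.3 FPKM.

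Of the 10 genes past the threshold, 6 stayed past it whichever mouse was left out. Uqcrq lost it without any 1 of the 3-month mice 5, 6, 7 and 9 and the 24-month mice 33, 34 and 35, with a limma p up to 0.0748. Ndufa7 lost it without the 3-month mice 5, 6, 7 and 9 and the 24-month mice 31, 33 and 34, with a limma p up to 0.0949. Ndufb8 lost it without the 3-month mice 5, 6, 7 and 9 and the 24-month mice 31, 33 and 35, with a limma p up to 0.102. Ndufa4l2 lost it without the 3-month mice 5, 8 and 9 and the 24-month mice 31, 32, 33 and 35, with a limma p up to 0.0716.

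**Figure D2:**
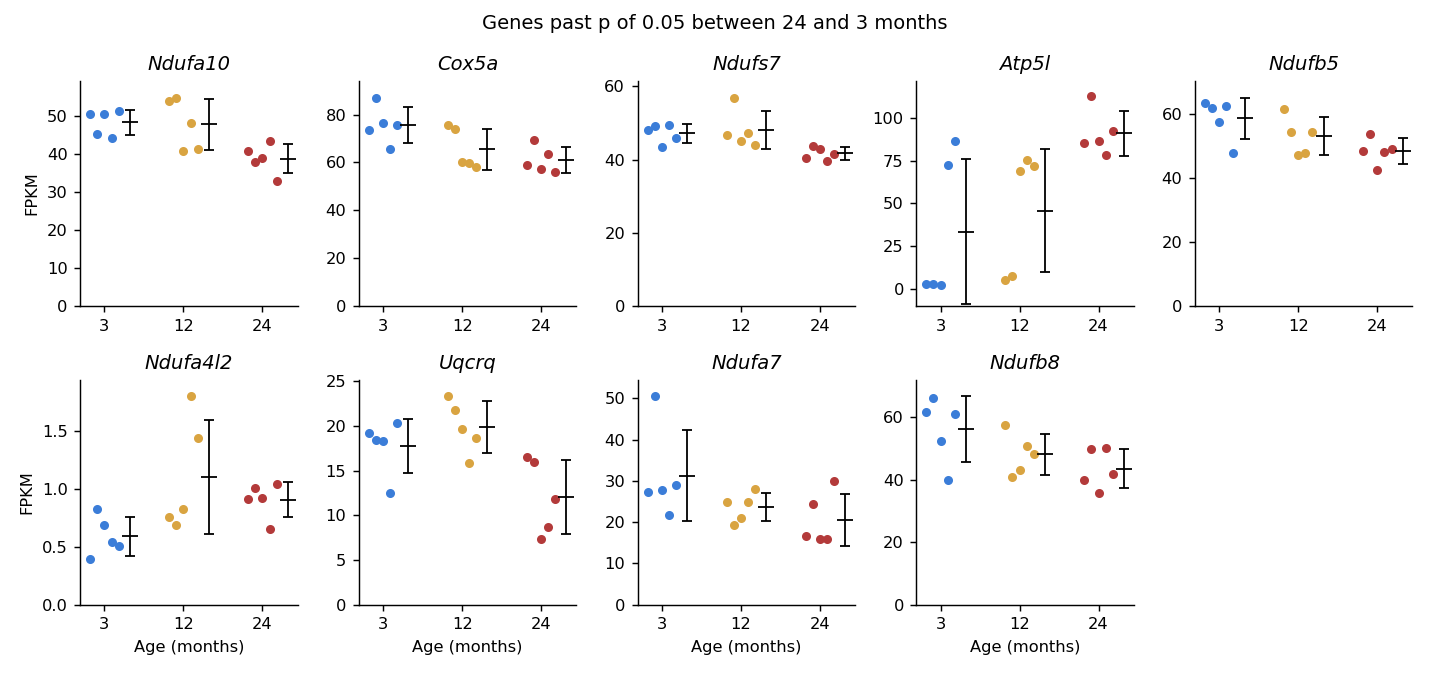
FPKM of 9 genes with a limma p under 0.05 between 24 and 3 months, for each mouse (points) at 3, 12 and 24 months, with the mean and SD beside the points and vertical axes that include 0. In Ndufa10 the 24-month mice (32.9 to 43.2 FPKM) lie below all the 3-month mice, and Atp5l falls into a low and a high set of mice at 3 and 12 months.

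At 12 months the genes that passed the test lay on the other side. Against 3 months, 10 of the 83 were higher and 0 were lower at a limma p under 0.05, and none had an adjusted p under 0.05. The 10 were Ndufa8, Ndufs8, Ndufv3, Ndufs5, Ndufs4, Ndufb10 and Ndufa4l2 of complex I, Uqcrb of complex III, Cox4i2 of complex IV and Atp5k of complex V. Over all genes tested 11.4% were higher and 2.90% lower, and among genes of at least 10 FPKM 10.7% and 6.96%. In the chain, 7 of 68 genes at that level (10.3%) were higher, which is close to the background, and 0 were lower. The median log2 change of the 68 was 0.10, against 0.03 for all genes at that level. With median-of-ratios size factors 5 of the 83 were higher and 2 lower, so this split depended on the scaling.

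Ndufa8, an accessory subunit of complex I (chr2:36036326-36049406, minus strand), had 37.9, 43.4, 24.5, 24.6 and 24.3 FPKM at 3 months and 65.6, 46.3, 57.4, 43.7 and 62.1 FPKM at 12 months. The ages did not overlap. At 24 months it had 59.6, 22.9, 20.9, 19.8 and 18.5 FPKM, so that mouse 31 alone stood in the 12-month range. The log2 change was 0.84 (SE 0.20) from 3 to 12 months, with a limma p of 0.00175, and -1.07 (SE 0.30) from 12 to 24 months, with a limma p of 0.00543. Without the 24-month mouse 31 the second of these was -1.37.

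Uqcrb, a small subunit of complex III, had 109, 115, 95.5, 65.1 and 112 FPKM at 3 months and 137, 135, 203, 170 and 157 FPKM at 12 months. The 2 ages did not overlap, and at 24 months its values were 162, 76.2, 160, 128 and 166 FPKM. The log2 change from 3 to 12 months was 0.70 (SE 0.18), with a limma p of 0.00308. Ndufs8, another iron-sulphur subunit of complex I, was the only other gene with separate ranges, 25.7 to 28.8 FPKM at 3 months and 29.2 to 32.5 FPKM at 12 months. Its log2 change was 0.16 (SE 0.06), and its limma p reached 0.106 under the other scalings and fits. For separate ranges between 3 and 12 months too, the share over all genes is not given here. Of the 10 genes, 6 stayed past the threshold whichever mouse was left out. Ndufa4l2, Ndufb10, Ndufs4 and Ndufs5 lost it without any 1 of 4 to 6 mice, with a limma p up to 0.0947. The 3-month mouse 5 was among those for each, and the count was 6 without it.

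Against 12 months, 13 of the 83 genes were lower at 24 months and 1 was higher at a limma p under 0.05, again with none at an adjusted p under 0.05. The 13 were Ndufv3, Ndufa8, Ndufb7, Ndufa10, Ndufs8, Ndufs7, Ndufa2 and Ndufv1 of complex I, Uqcr10, Uqcrq and Uqcrc1 of complex III, Cox6b1 of complex IV and Atp5o of complex V. Of all genes 3.35% were lower and 3.06% higher, and among genes of at least 10 FPKM 7.01% were lower and 3.44% higher. In the chain 12 of 68 genes at that level (17.6%) were lower and 0 were higher, and their median log2 change was -0.15 against -0.05 for all genes at that level. With the values scaled to TPM (which sums to the same total in every mouse) 7 were lower and 3 higher. The 3 comparisons share mice, so they are not independent of each other.

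In this comparison 34 of the 37 complex I genes and 7 of the 8 complex III genes had a negative log2 change, as did 3 of 4 in complex II, 9 of 17 in complex IV and 14 of 17 in complex V. Of the 68 genes of at least 10 FPKM 82.4% were negative, against 59.5% of all genes at that level. Cox6b1, a complex IV subunit at the surface facing the intermembrane space (chr7:30616861-30626151, minus strand), had 136, 106, 135, 104 and 103 FPKM at 12 months and 87.1, 99.8, 66.5, 91.1 and 54.2 FPKM at 24 months. The ages did not overlap, and the log2 change was -0.57 (SE 0.18) with a limma p of 0.00952. Ndufv3, an accessory subunit of the complex I module that oxidises NADH, had 26.5, 19.8, 22.5, 24.0 and 27.1 FPKM against 20.03, 19.6, 16.97, 12.4 and 15.045 FPKM. Here 24-month mouse 31 overlapped the 12-month range. The log2 change of Ndufv3 was -0.50 (SE 0.14), with a limma p of 0.00477.

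Uqcrq fell by 0.72 on the log2 scale between 12 and 24 months (SE 0.21), from 23.3, 21.8, 19.7, 15.9 and 18.6 FPKM to the 24-month values given above. Uqcrc1, the core protein of complex III, had 171, 172, 204, 193 and 205 FPKM at 12 months and 178, 172, 157, 150 and 154 FPKM at 24 months. The log2 change was -0.22 (SE 0.09), with a limma p of 0.0337. Of the 14 genes, 6 stayed past the threshold whichever mouse was left out. Atp5o, Cox7a1, Ndufa10, Ndufa2, Ndufs7, Ndufs8, Ndufv1 and Uqcrc1 lost it without any 1 of 2 to 6 mice, with a limma p up to 0.0776. Without the 24-month mice 33, 34 or 35 the count of lower genes was 8. Of 8 proximal tubule markers, Kap alone stood at 6399 to 9058 FPKM at 12 months and 4258 to 6941 FPKM at 24 months, which did not pass the test. The other 7 summed to 1929 to 2422 FPKM and 1885 to 2336 FPKM. Among the 8 markers, 1 was lower at 24 than at 12 months at a limma p under 0.05 and 0 were higher. Their median log2 change was -0.11, and the part of the proximal tubule in the results was not tested.

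**Figure D3:**
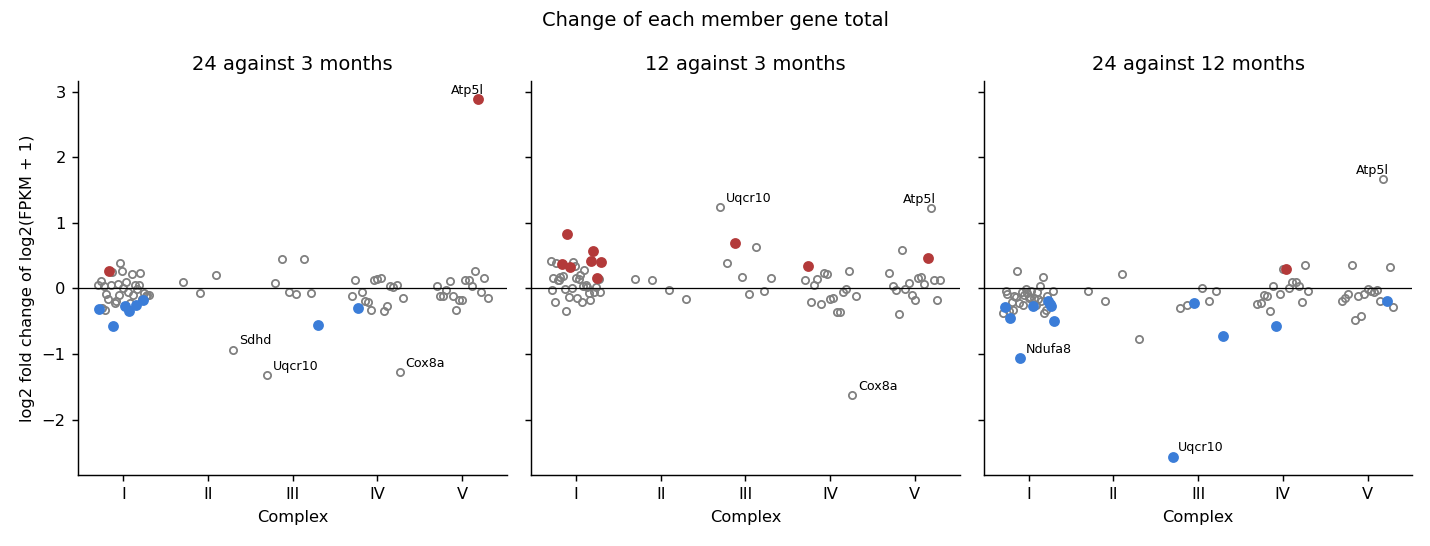
Log2 change of the gene total of each of the 83 genes (points) by complex, in the 3 comparisons, with filled points for a limma p under 0.05 (red higher, blue lower) and open points for the rest. Most changes lie within 1 unit of 0, and genes beyond 0.9 units are named, of which only Atp5l (24 against 3 months), Uqcr10 and Ndufa8 (24 against 12 months) passed the test.

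The largest changes of gene totals belonged to genes whose values fell into 2 separate ranges across the 15 mice. With a mean of at least 5 FPKM and a gap of over 1 log2 unit between neighbouring mice, 6 of 72 genes of the chain met this description (8.33%), against 5.75% of all 7464 genes at that level. They were Atp5l, Cox7a2l, Cox8a, Sdhd, Uqcr10 and Uqcrfs1. All 6 lie on the minus strand, as do 56 of the 83 genes. This description was made after the values were seen.

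Atp5l, the g subunit of the ATP synthase (chr9:44912557-44920742, minus strand), had 2.53, 2.68, 2.41, 72.5 and 86.6 FPKM at 3 months, 5.02, 7.43, 68.7, 75.3 and 71.9 FPKM at 12 months and 85.5, 113, 86.4, 78.1 and 92.3 FPKM at 24 months. The low set held 3 of the young mice, 2 of the 12-month mice and none of the old mice. The high sets of the young (72.5 and 86.6 FPKM) and the old mice overlapped, while all the old mice lay above all the 12-month mice (limma p of 0.0541). The log2 change between 24 and 3 months was 2.89 (SE 1.01), with a limma p of 0.0177 (adjusted p 0.215).

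The transcripts at the locus differed between the 2 sets. The coding transcript ENSMUST00000043675 was listed at 0 in the 5 low mice and at 61.3 to 107 FPKM in the other 10. The assembled transcript MSTRG.37587.2, of 24 exons and 4066 bases, runs from the same end through the neighbouring gene Ube4a (chr9:44913217-44965605, minus strand) and is named for Ube4a. It stood at 19.6, 19.5, 12.1, 16.5 and 10.98 FPKM in the 5 low mice and at most at 0.0258 FPKM in the other 10. Its FPKM is not counted in the total of Atp5l. It is also the 1 transcript that spans the promoter stretch of Atp5l printed above.

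Uqcr10, a small subunit of complex III (chr11:4701692-4704639, minus strand), had 6.58, 89.2, 68.5, 47.4 and 6.70 FPKM at 3 months, 69.3, 64.6, 60.5, 64.0 and 70.3 FPKM at 12 months and 12.0, 6.43, 55.5, 4.46 and 5.08 FPKM at 24 months. All 5 of the 12-month mice were high and 4 of the 5 old mice were low. The log2 change between 24 and 12 months was -2.57 (SE 0.57), with a limma p of 0.00125 (adjusted p 0.590). The coding transcript ENSMUST00000058407 was listed at 0 in 8 mice. In 2 of these, the 12-month mice 18 and 20, a different assembled transcript of the same gene held most of the total, MSTRG.5076.2 at 59.5 FPKM in mouse 18 and MSTRG.5076.1 at 59.6 FPKM in mouse 20. With only transcripts identical to the annotation the limma p of Uqcr10 was 0.171.

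Cox8a, a small subunit of complex IV (chr19:7206421-7217628, minus strand), had 144, 344, 157, 89.8 and 128 FPKM at 3 months, 0.972, 189, 300, 231 and 11.6 FPKM at 12 months and 8.89, 330, 178, 118 and 14.9 FPKM at 24 months. Its coding transcript ENSMUST00000039758 was listed at 0 in the 4 low mice. An assembled transcript, MSTRG.17643.1, held 255, 265 and 278 FPKM in mice 6, 19 and 32, the 3 with the highest totals, and 0.972 to 54.3 FPKM in the others. The totals of Cox8a did not pass the test in any comparison, with limma p between 0.213 and 0.831.

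Sdhd, a membrane anchor of complex II (chr9:50596357-50603812, minus strand), had 22.3, 88.5, 80.3, 73.5 and 86.3 FPKM at 3 months, 17.8, 83.5, 64.9, 77.5 and 74.5 FPKM at 12 months and 66.9, 23.3, 21.8, 14.2 and 75.3 FPKM at 24 months. Low mice were 1 of 5, 1 of 5 and 3 of 5. Uqcrfs1, the Rieske iron-sulphur protein of complex III, stood at 8.96 to 12.8 FPKM in 4 mice (2 at 3 months, 1 at 12 and 1 at 24) and at 61.6 to 83.4 FPKM in the others. Cox7a2l, a factor of respiratory supercomplexes, stood at 19.9 and 20.1 FPKM in the 12-month mouse 18 and the 24-month mouse 34 and at 53.1 to 79.7 FPKM in the others. At these 3 loci no transcript of another gene on the same strand exceeded 3 FPKM in any mouse, and Sdhd and Uqcrfs1 each had a single listed transcript. The totals of the 3 genes did not pass the test in any comparison.

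**Figure D4:**
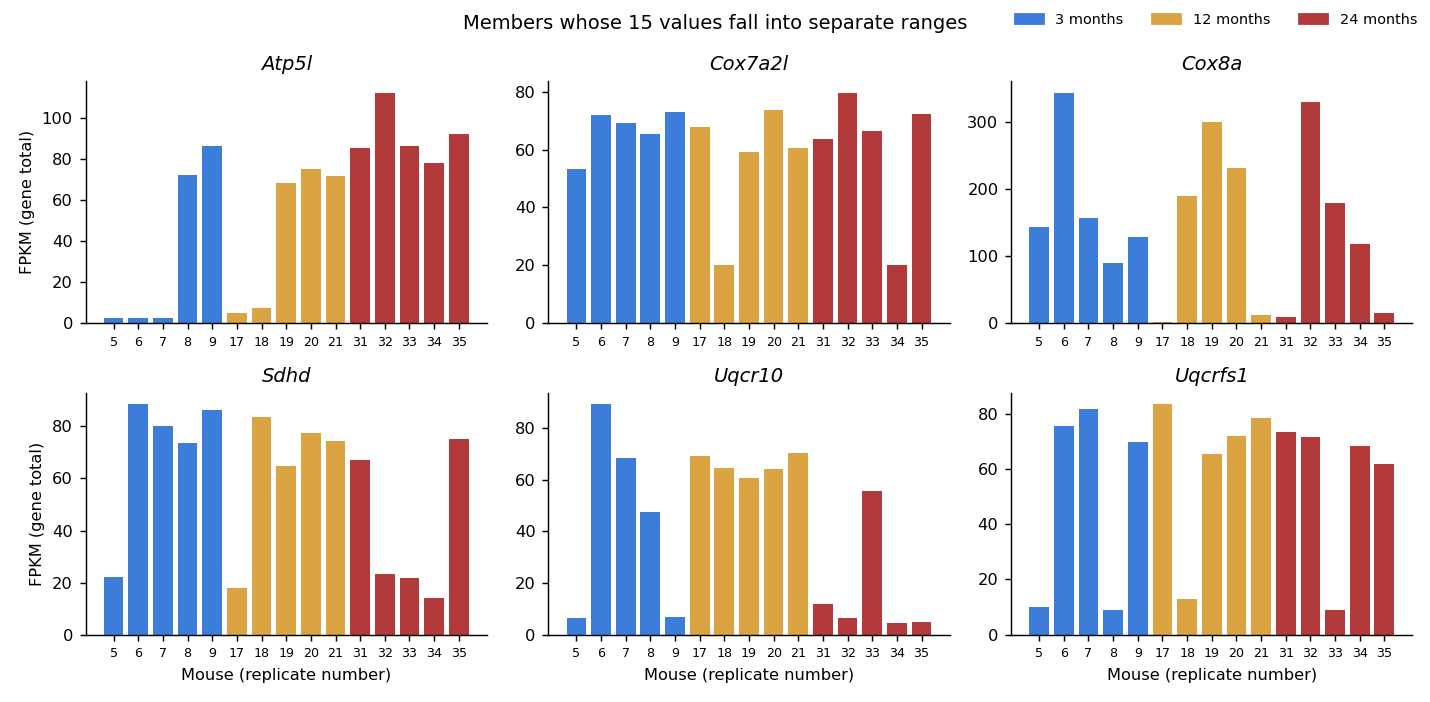
Gene totals in FPKM (bars, vertical axes from 0) of the 6 genes with values in 2 separate ranges, for each of the 15 mice, coloured by age and named by replicate number. Atp5l is low in 3 young, 2 middle-aged and no old mice, and Uqcr10 is low in 2 young, no middle-aged and 4 old mice.

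**Figure D5:**
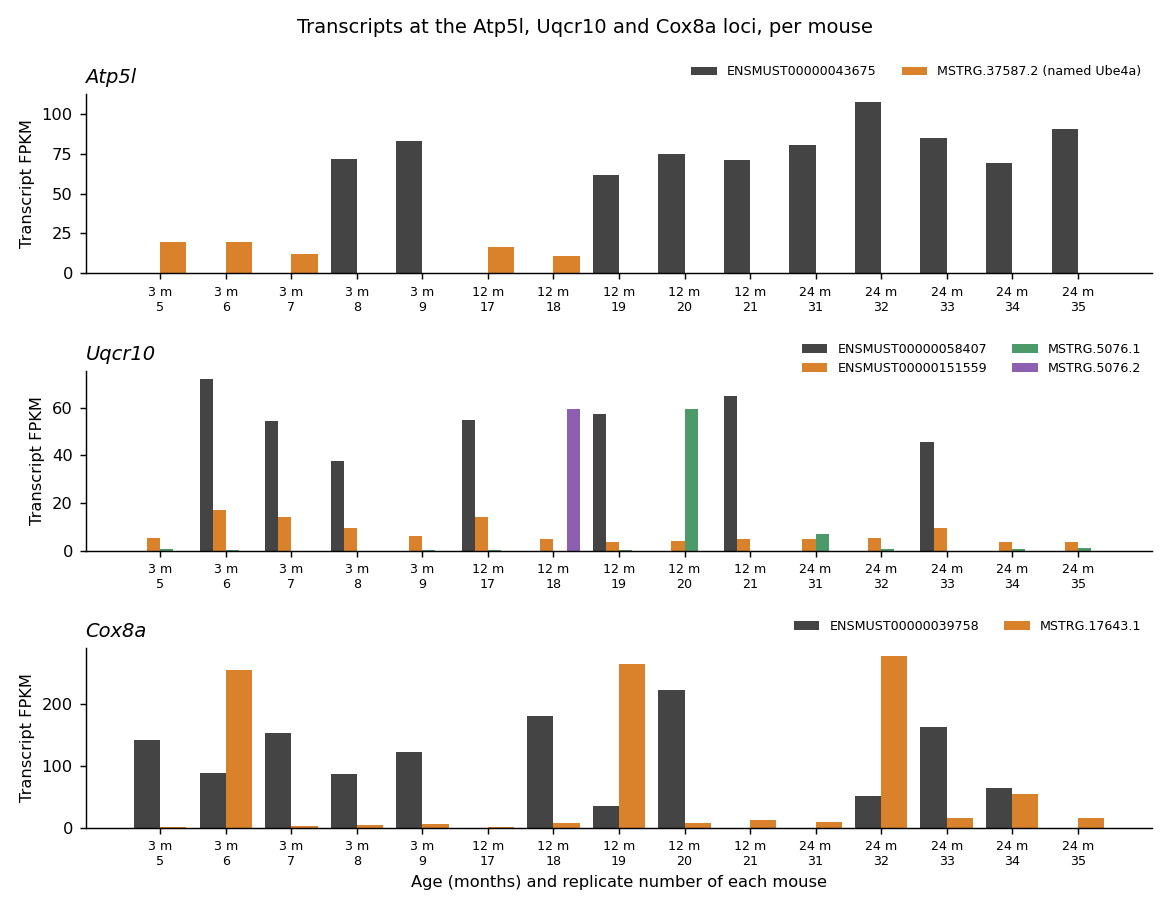
FPKM of single transcripts (bars, axes from 0) at the Atp5l, Uqcr10 and Cox8a loci in each mouse. MSTRG.37587.2, named for Ube4a, is at 10.98 to 19.6 FPKM in the 5 mice in which the coding transcript of Atp5l is listed at 0.

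Gene totals and transcripts were next compared side by side between 24 and 3 months. The median gene drew most of its total from 1 transcript: in 36 of the 83 the leading transcript held over 90%, and in 4 under 50%. Among 390 transcripts tested, 18 (4.62%) were higher and 8 (2.05%) lower at a limma p under 0.05, against 5.43% and 2.47% of all 124719 transcripts. With a log2 change beyond 1 as well, 4 were called (1.03%), against 0.795% of all. None had an adjusted p under 0.05, and the lowest adjusted p by limma was 0.398. These shares were close to the background.

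The 4 were the coding transcripts of Atp5l (above), Ndufa12 and Ndufs7 and an assembled transcript of Atp5s, which encodes a coupling factor and not a subunit. Ndufa12, an accessory subunit of complex I, has 2 leading coding transcripts that share most of their span on chromosome 10. The longer, ENSMUST00000020209, had 6.81, 21.7, 4.82, 12.4 and 7.15 FPKM at 3 months and 1.78, 1.04, 5.25, 1.98 and 5.01 FPKM at 24 months, a log2 change of -1.49 (SE 0.43) with a limma p of 0.00645. The shorter, ENSMUST00000179990, had 14.3, 9.43, 14.0, 3.85 and 11.6 FPKM against 12.8, 17.6, 7.04, 13.4 and 14.5 FPKM. The longer form went from 47.7% to 17.2% of the mean total and the shorter from 47.9% to 74.7%. The gene total, by contrast, had a log2 change of -0.30 (SE 0.17) with a limma p of 0.0998.

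In Ndufs7 the called transcript was a minor form. ENSMUST00000105364 had 0, 14.3, 10.8, 11.8 and 2.27 FPKM at 3 months and was listed at 0 in 4 of the 5 mice at 24 months, with 7.01 FPKM in mouse 32. Its log2 change was -1.98 (SE 0.88), with a limma p of 0.0482. The leading form, ENSMUST00000020361, had 28.2, 19.4, 13.7, 14.9 and 33.7 FPKM against 26.9, 8.94, 37.9, 28.6 and 30.5 FPKM. In Atp5s, MSTRG.8208.3 had 0.607, 0.270, 3.45, 0.188 and 0.231 FPKM at 3 months and 1.68, 1.85, 2.93, 3.32 and 3.40 FPKM at 24 months, a log2 change of 1.09 (SE 0.36). The total of Atp5s had a log2 change of 0.16 (SE 0.15).

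A second fit took the share of each transcript in its gene, as the difference of log2(FPKM + 1) between transcript and total. Of 372 transcripts, 23 shares (6.18%) were higher and 6 (1.61%) lower at a limma p under 0.05, against 4.60% and 6.11% of all 71817 transcripts. With a difference beyond 1, 8 were called (2.15%), against 1.10%. They belonged to Atp5l (3 transcripts), Cox8a (2), Ndufa12, Ndufa7 and Atp5g3, so that 5 of the 8 lay in genes with values in 2 ranges. The lowest adjusted p by limma was 0.260.

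Atp5g3 encodes the c subunit of the ATP synthase ring, as do Atp5g1 and Atp5g2. Its assembled transcript MSTRG.19854.3 had 7.17, 5.89, 1.53, 0.0971 and 0.352 FPKM at 3 months and 41.0, 42.2, 11.4, 0.311 and 5.34 FPKM at 24 months, from 3.13% to 24.2% of the mean total. The difference in share was 2.14 (SE 0.92), with a limma p of 0.0404. Its annotated coding transcript ENSMUST00000018914 had 64.1, 82.7, 85.2, 17.8 and 18.04 FPKM against 7.95, 13.2, 12.9, 48.2 and 45.0 FPKM. At 24 months mice 31 and 32 had the most of the assembled form and mice 34 and 35 the most of the annotated form. The total of Atp5g3 had a log2 change of -0.18 (SE 0.17).

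Among 88 transcripts annotated as retained introns, 5 (5.68%) were higher at 24 months and 0 lower, and the background over all retained-intron transcripts was 5.10%. Their median log2 change was 0.09 against 0.02 for all such transcripts. They made up 1.84% to 2.39% of the FPKM of the 83 genes at 3 months and 2.03% to 3.09% at 24 months. Coding transcripts made up 89.9% to 94.4% at 3 months and 87.8% to 92.2% at 24 months. Of the 5, the highest at 24 months was ENSMUST00000146103 of Atp5j, the coupling factor 6 subunit, at 0.603, 3.17, 0, 0.871 and 2.78 FPKM at 3 months and 3.84, 1.95, 3.01, 4.43 and 3.05 FPKM at 24 months.

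Subunit paralogs were dominated by the common form. Cox4i1 stood at 171 FPKM and Cox4i2, the hypoxia- and lung-associated form, at 0.288 FPKM, and Cox6a1 at 183 FPKM against 0.625 FPKM for the muscle form Cox6a2. Cox7a2 stood at 112 FPKM against 2.57 FPKM for the muscle form Cox7a1, and Cox6b1 at 98.3 FPKM against 4.21 FPKM for Cox6b2, known from testis. Cox8b (0.148 FPKM) and Cox7b2 (0.0134 FPKM) were close to 0, against 150 FPKM for Cox8a and 94.3 FPKM for Cox7b. Ndufa4, since placed in complex IV, stood at 62.6 FPKM and its paralog Ndufa4l2, known as a hypoxia-inducible gene, at 0.868 FPKM. The 3 genes of the c subunit stood at 87.5 (Atp5g3), 49.1 (Atp5g1) and 45.2 FPKM (Atp5g2), with no change past the test.

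Of these less abundant forms, Ndufa4l2 and Cox4i2 were higher at 12 months. Ndufa4l2 had 0.396, 0.832, 0.686, 0.546 and 0.504 FPKM at 3 months, 0.756, 0.689, 0.829, 1.80 and 1.44 FPKM at 12 months and 0.916, 1.01, 0.923, 0.652 and 1.04 FPKM at 24 months. Its log2 change was 0.26 (SE 0.10) between 24 and 3 months, with a limma p of 0.0295. Cox4i2 had 0.135, 0.258, 0.135, 0.123 and 0.0700 FPKM at 3 months and 0.114, 0.591, 0.410, 0.459 and 0.792 FPKM at 12 months, with a log2 change of 0.35 (SE 0.11) and a limma p of 0.0114. The 24-month values of Cox4i2 were 0.309, 0.188, 0.330, 0.116 and 0.293 FPKM. Both are known in pericytes, and the 5 marker genes of pericytes and smooth muscle summed to 27.3 to 50.4 FPKM at 3 months, 34.8 to 56.2 FPKM at 12 months and 34.2 to 68.5 FPKM at 24 months. Of these 5, 1 (Pdgfrb) was higher in both comparisons with 3 months, and the part of pericytes was not tested.

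Cox7a1 was the 1 gene higher at 24 than at 12 months, with 1.93, 2.51, 1.94, 2.66 and 1.83 FPKM at 12 months and 2.69, 3.71, 2.80, 2.52 and 2.87 FPKM at 24 months. The log2 change was 0.30 (SE 0.11), with a limma p of 0.0235. The 4 skeletal muscle markers in the table summed to 0.120 to 0.528 FPKM over the 15 mice, close to 0 in every mouse, and 1 of them (Mb, log2 change 0.03) was higher at 24 than at 3 months. The 5 fat markers summed to 0 to 13.6 FPKM.

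Other genes of the pathway were taken from lists. Of 16 assembly factors of complex I, 15 were in the table, and 2 were higher at 24 than at 3 months at a limma p under 0.05. Over all genes tested 11.4% were higher, the share against which this count and those of the other lists are to be read. Ndufaf7, a methyltransferase of complex I assembly, had 6.45, 7.12, 7.30, 8.15 and 6.29 FPKM at 3 months and 7.999, 9.45, 9.29, 10.2 and 9.46 FPKM at 24 months. Its log2 change was 0.35 (SE 0.08), with a limma p of 0.00198 (adjusted p 0.0794). Of 22 factors for complex IV, 4 were higher and 0 lower, among them Taco1, the translational activator of a complex IV subunit, with 5.29 to 6.06 FPKM at 3 months and 6.14 to 8.06 FPKM at 24 months. These ranges did not overlap, and the log2 change was 0.31 (SE 0.08). Of 6 factors for complex III none passed, and of 3 for complex V 1 was higher (Atpaf1, log2 change 0.54, SE 0.21).

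Sdhaf1, an assembly factor of complex II, gave the 1 adjusted p under 0.05 among the listed genes, and the 1 gene of the whole table at that threshold between 24 and 12 months. It had 0.800, 1.23, 0, 0.627 and 1.19 FPKM at 3 months, 1.53, 1.19, 1.40, 2.10 and 1.64 FPKM at 12 months and was listed at 0 in all 5 mice at 24 months. The adjusted p of limma was 0.00227 between 24 and 12 months. Sdhaf1 had a log2 change of -1.35 there. It has a single transcript of 1 exon on the minus strand, and the single-exon transcript E130208F15Rik on the plus strand lies within its span, at 1.70 to 2.73 FPKM at 3 months, 2.84 to 4.33 FPKM at 12 months and 3.18 to 3.95 FPKM at 24 months. Its 12-month and 24-month ranges overlapped, while Sdhaf1 was highest at 12 months.

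Of 25 regulators of mitochondrial DNA expression and biogenesis, 5 were higher and 1 was lower at 24 than at 3 months at a limma p under 0.05, where 11.4% and 3.46% of all genes were. Tfam, which packages and transcribes mitochondrial DNA, had 5.16, 4.75, 4.92, 4.59 and 5.31 FPKM at 3 months and 6.41, 5.96, 5.78, 7.14 and 6.77 FPKM at 24 months. The ages did not overlap, and the log2 change was 0.32 (SE 0.07) with a limma p of 0.00148 (adjusted p 0.0714). Twnk, the mitochondrial helicase, had 3.04, 2.11, 4.88, 5.63 and 5.004 FPKM against 2.09, 2.22, 1.41, 1.02 and 1.88 FPKM, with a log2 change of -0.88 (SE 0.23). Mtpap, the mitochondrial poly(A) polymerase, had a log2 change of 0.35 (SE 0.11). Of the 7 subunits outside the name rule, Atpif1, the inhibitor of the ATP synthase, was higher, with 46.5, 33.3, 42.8, 25.5 and 16.9 FPKM against 80.1, 30.99, 55.7, 53.4 and 54.5 FPKM and a log2 change of 0.74 (SE 0.31).

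Markers of other cells moved with age beside these results. Of 6 leukocyte markers that were listed, 5 were higher at 24 than at 3 months, and their sum was 25.4 to 102 FPKM at 3 months, 68.4 to 420 FPKM at 12 months and 104 to 224 FPKM at 24 months. The 4 fibroblast markers summed to 8.69 to 30.1 FPKM at 3 months, 26.6 to 54.2 FPKM at 12 months and 19.2 to 33.8 FPKM at 24 months. At a limma p under 0.05, 2 of the 4 were higher at 24 than at 3 months, and all 4 were higher at 12 than at 3 months. Between 12 and 24 months 2 of the 4 were lower at 24 months. In each comparison 0 passed in the other direction. Of 15 markers of the thick ascending limb, distal convoluted tubule, collecting duct, podocytes and endothelium, 1 (Pecam1) was higher at 24 than at 3 months and 0 were lower, and of 8 proximal tubule markers 1 (Slc5a2) was lower. The 4 adrenal cortex markers summed to 1.05 to 3.25 FPKM, with 1 (Star) higher, and none of the 5 erythroid markers passed. No marker in these lists was at 0 in all 15 mice. Their part in the results above was not tested.

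Circular RNAs, loops closed by back-splicing or left from introns, were listed for 10 of the 83 genes. There were 18, of which 12 were exonic and 6 intronic, and they took 0.479% to 0.654% of the circular RNA counts of a mouse. How these estimated counts were derived from the reads is not given in the sources used here, and they are not read as numbers of molecules. The largest was the 5-exon circle of Atp5b (chr10:128085091-128088533, plus strand), with 15472, 15140, 16131, 14750 and 16242 counts at 3 months and 15579, 15035, 12416, 15499 and 13620 counts at 24 months. Its log2 change was -0.27, with an adjusted p of 0.0884 by edgeR. The 2 exonic circles of Atp5a1 averaged 10413 and 5310 counts at 3 months and 11620 and 5668 counts at 24 months, with adjusted p of 0.984 and 0.673 by edgeR.

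Of the 18 circles, 2 were called by edgeR at an adjusted p under 0.05, both intronic and both higher at 24 months, against 13.3% of all 11924 circles tested in either direction. Higher calls made up 5.82% of the intronic and 6.75% of the exonic circles in the whole table. The circle from an intron of Atp5g3 (chr2:73909942-73910954, minus strand) had 55.3, 58.5, 58.1, 75.7 and 76.7 counts at 3 months and 114, 107, 93.5, 114 and 104 counts at 24 months, with no overlap. Its log2 change was 0.56, with an adjusted p of 0.0118 by edgeR. The circle from an intron of Uqcrc1 (chr9:108947942-108948544, plus strand) had 36, 32.5, 36, 26.2 and 31 counts against 53, 43, 57.5, 57 and 74 counts, a log2 change of 0.66 with an adjusted p of 0.0182 by edgeR. The linear totals of the hosts had a log2 change of -0.18 (SE 0.17) in Atp5g3 and -0.05 (SE 0.09) in Uqcrc1, neither of which passed the test. At an unadjusted edgeR p under 0.05, 5 of the 18 were higher, against 14.6% of all circles, and 1 was lower. Without the 24-month mouse 33 the circle of Uqcrc1 was not called, and without the 24-month mouse 32 the circle of Atp5b was called lower, as it was by DESeq2.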

How the data were processed

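RNA-seq libraries of whole kidney from 15 mice were compared. The authors trimmed reads, aligned them to the mouse genome (GRCm38) and assembled and quantified transcripts with StringTie against Ensembl release 88, and TopHat and TopHat2 are also named in the submitters' processing notes. The labels give ribosomal depletion and a stranded kit, and the study's methods give poly(A) capture. The values deposited per transcript were FPKM and read coverage. The coverage deposited, times transcript length, was used only to estimate depth. The circular RNA table deposited by the authors held estimated counts, whose derivation is not given in the sources used here, and these were rounded to whole numbers for testing. The deposited tables had 0 columns of other samples. Mitochondrially encoded genes were not analysed here.

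FPKM of transcripts in classes =, c, j and o (identical to, within, sharing a junction with or overlapping the annotation) were summed per gene. Each pair of ages was fitted across all genes, transcripts or shares with limma 3.58.1 (trend) on log2(FPKM + 1), keeping every feature above 0 in 1 or more of the 10 mice of both ages. A fold change on this scale understates the change of low genes. Genes were called at an unadjusted p under 0.05, and transcripts and shares also at a log2 change beyond 1, with Benjamini-Hochberg values beside them. Circles were tested where 5 or more of the 10 libraries held a value, with edgeR 4.0.16 (quasi-likelihood, TMM), with DESeq2 1.42.0 as an alternative, at an adjusted p under 0.05. The rule for named genes took the 3 highest of each complex, up to 4 called genes per complex, direction and comparison, the paralogs, called transcripts, the leading and called circles and up to 3 called genes per list. The other called genes and the genes in 2 ranges were named after their values were seen, and 1 gene is not reported here. The members and lists were chosen with earlier results of these data known. Scripts used R 4.3.3 and Python 3.11.15 and were tested on simulated data. Alternatives were a pseudocount of 0.1, filters, TPM, size factors, all 15 mice in one fit and each mouse left out. Values are from separate mice, so p-values measure the spread between mice of 1 strain and sex.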

Additional observations from a re-analysis of the deposited data

Results flagged for a closer look

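In 20 of 177 groups of 5 mice, 1 mouse lay far from the other 4 (a gap above 0.71 of the group's range). The groups were those of 53 named genes and the complex sums. About 1 in 20 groups of independent, normally distributed values pass that limit. The genes share mice and were named in part by their values, so that figure cannot serve as a measure of chance here. At 3 months the lowest mouse stood apart in Ndufa2 (7.95 FPKM, mouse 8), Uqcrq (12.6 FPKM, mouse 8), Uqcrc2 (131.0 FPKM, mouse 6) and Sdhd (22.3 FPKM, mouse 5). The highest stood apart in Cox8a (344 FPKM, mouse 6), Ndufa7 (50.4 FPKM, mouse 6) and Cox7b2 (0.0456 FPKM in mouse 5, listed at 0 in the other 4).

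At 12 months mouse 18 was lowest in Atp5k (1.996 FPKM), Cox7a2l (19.9 FPKM), Uqcrfs1 (12.8 FPKM) and the sum of complex III (609.6 FPKM), and highest in Ndufs7 (56.9 FPKM). Mouse 17 was lowest in Sdhd (17.8 FPKM). At 24 months the lowest mouse stood apart in Cox6c (403.5 FPKM, mouse 32), Cox7a2l (20.1 FPKM, mouse 34) and Uqcrfs1 (8.96 FPKM, mouse 33). The highest stood apart in Cox7a1 (3.71 FPKM, mouse 32), Ndufa2 (12.2 FPKM, mouse 32), Ndufa8 (59.6 FPKM, mouse 31) and Uqcr10 (55.5 FPKM, mouse 33). Of these 20, 8 belong to the 6 genes whose values fell into 2 ranges. The cause was not tested.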

How the results depend on the processing

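No gene that passed the test in a comparison changed direction there under any alternative run. Named genes that did not pass were not counted here. The ratio of 24 to 3 months passed from below to above 1 without the genes in 2 ranges in complex II (0.948 to 1.04) and complex III (0.999 to 1.04), and of 12 to 3 months in complex IV (0.982 to 1.004), each by less than the spread between mice. With 1 mouse left out, the 24 to 3 month ratios of complexes III and V lay on both sides of 1. Between 24 and 3 months the 2 higher genes became 1 with a mean of at least 1 FPKM, with all 15 mice in one fit, with a log2 change beyond 1, or without the genes in 2 ranges (an alternative chosen after seeing the data). The 8 lower genes became 0 with a log2 change beyond 1. Between 12 and 3 months the 10 higher genes became 5 with size factors and 0 with a log2 change beyond 1, and the 0 lower became 1 with TPM and 2 with size factors. Between 24 and 12 months the 1 higher gene became 3 with TPM or size factors, 2 with a mean of at least 1 FPKM or a robust prior, and 0 with all 15 mice or a log2 change beyond 1. The 13 lower became 7 with TPM and 2 with a log2 change beyond 1. A Benjamini-Hochberg adjusted p under 0.05 left 0 genes, transcripts or shares.

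For transcripts between 24 and 3 months, the 2 higher became 15 with a pseudocount of 0.1 and 13 with TPM, and the 2 lower became 5 with either. One FPKM equals 4.12 to 4.58 TPM, so the pseudocount weighs less there. Higher shares became 17 with a pseudocount of 0.1, 12 with TPM and 2 with all 15 mice, and lower shares became 8 with that pseudocount and 2 with a mean of at least 1 FPKM. DESeq2 added 1 lower circular RNA.

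With 1 mouse left out in turn, the counts between 24 and 3 months ran from 1 to 3 higher and 5 to 11 lower genes (5 without the 3-month mice 6, 7 or 9). They ran from 6 to 12 higher and 0 to 3 lower between 12 and 3 months, and from 0 to 3 higher and 8 to 17 lower between 24 and 12 months. Transcripts ran from 1 to 4 higher and 1 to 5 lower, shares from 3 to 6 either way, and circular RNAs from 1 to 2 higher and 0 to 1 lower. The ratios of 24 to 3 months ran from 0.893 to 0.945 for complex I, 0.918 to 0.982 for complex II, 0.962 to 1.03 for complex III, 0.901 to 0.991 for complex IV, 0.968 to 1.01 for complex V and 0.931 to 0.983 for all 83 genes. For the genes that passed the test in a comparison, 24 values under other settings and 84 with a mouse left out no longer passed, while 211 and 256 did. Scaling to nuclear genes was not run apart from TPM, since 0 mitochondrially encoded transcripts were found and both scalings are then the same. No paired analysis was possible because the ages share no replicate numbers.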
